A study of Mus musculus with 13 samples.

Results

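The Pax7 and Pax3 loci were examined for binding of an HA-tagged Myf6 in mouse embryonic fibroblasts, as 2 genomic windows of the GRCm39 build. The Pax7 window was chr4:139414000-139611000 (197 kb) and the Pax3 window chr1:78028000-78224000 (196 kb). Every deposited peak that shared at least 1 bp with a window was taken. This gave 20 of the 178951 peaks in 13 peak lists, and these 20 peaks fell into 9 of 85644 merged places. The windows are fixed coordinates around the genes and use no peak value, but the loci were picked with earlier results of these data known.

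Pax3 and Pax7 are closely related transcription factors with a paired domain and a homeodomain. Pax3 acts in the dermomyotome of the embryo and in the progenitors that migrate into the limb, and Pax7 marks the satellite cells, the stem cells of adult muscle. Both act upstream of the myogenic regulatory factors and are lost as myoblasts differentiate. Myf6 (also MRF4) is one of these factors, a basic helix-loop-helix protein that binds E-boxes, the DNA motif CANNTG. H3K27me3 is the histone mark laid down by Polycomb repressive complexes, and developmental regulators such as the Pax genes are well-known carriers of it in cells that do not express them.

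Binding was read by CUT&RUN, where an antibody brings a nuclease to the bound protein and the chromatin around it is cut free. All cells, controls included, came from mice with 3 alleles. Pax7-CreERT2 is a tamoxifen-dependent Cre named for Pax7, Rosa26-LSL-tdTomato is a Cre-dependent red reporter, and CAG-rtTA3 supplies the doxycycline-dependent activator. All cells had also been transduced with a lentivirus from which doxycycline switches on overexpression of HA-tagged Myf6, so the HA antibody reads the added Myf6 and not the cells' own. How the Pax7 allele is built is not given in the sources used here, so it is not known whether it alters sequence inside the Pax7 window. The cells spent 24 h in iMPC medium under 1 of 3 treatments. In the first, called +Myf6+F/R/C, doxycycline (2 µg/mL) was given with Forskolin (5 µM, an activator of adenylyl cyclase), RepSox (5 µM, an inhibitor of TGF-β receptor signalling) and CHIR99021 (3 µM, an inhibitor of GSK3). In the second, +Myf6, doxycycline was given alone, and the third had neither. Each treatment had 2 libraries with anti-HA and 2 with IgG, and +Myf6+F/R/C cells had 1 library with anti-H3K27me3. No expression was measured, so the fibroblast label could not be checked against marker genes.

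Depth was recovered from the lists as the mean number of fragments per 10 kb of genome. For replicates 1 and 2 with anti-HA it was 61.9 and 40.9 after +Myf6+F/R/C, 42.4 and 30.6 after +Myf6, and 30.6 and 23.7 without doxycycline. IgG libraries had 8.25 to 22.7 and the H3K27me3 library 54.3. Fold enrichments and q-values below are the authors' own for each peak. A summit pileup is the number of fragments over the summit, recovered from the authors' fold and p-value. A site is a merged place with a peak in both HA lists of a treatment and in none of the 8 control lists, namely the uninduced HA lists (2) and all IgG lists (6).

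For Pax7, RefSeq gives 1 promoter, and it is shown as a sequence only. Whether any peak lies on it was not checked. The 250 bases before the start of the gene (chr4:139832969-139833218, minus strand, GRCm38.p6) are written from 5′ to 3′ with each CG in capitals. These coordinates belong to an older build than those of the peaks and cannot be set beside them.
Pax7 promoter: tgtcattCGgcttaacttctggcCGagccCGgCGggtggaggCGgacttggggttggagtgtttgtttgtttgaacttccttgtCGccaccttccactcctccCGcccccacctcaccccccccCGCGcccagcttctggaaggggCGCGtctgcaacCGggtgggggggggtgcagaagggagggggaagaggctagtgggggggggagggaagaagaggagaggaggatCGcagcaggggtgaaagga
The printed stretch holds 13 CG pairs. Over the 300 bases that the table gives, up to 50 past the start, the Pax7 promoter has 17 CG pairs, against a median of 7 over the 32851 promoters of the table, and 31.4% of these have at least 17. An E-box (CANNTG, which reads the same on both strands) occurs nowhere in the 300 bases. It occurs in 72.3% of all promoters. The forms CAGCTG, found in 16.3% of promoters, and CACCTG or its reverse CAGGTG, found in 20.2%, are both part of CANNTG and so are absent too. This says only that these letters are not in this stretch. The Pax3 promoter is not shown. Sequences under the peaks are not shown either, because no genome of the peaks' build was used here.

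At Pax7, HA peaks gathered in a single place. The 4 induced HA libraries held 5 peaks in the window, and 4 of these, 1 from each library, lay at chr4:139443881-139444431. This 551 bp place was a site of both treatments, called Pax7 region 2 here. Over the genome, 21.0% of all 71864 merged HA and IgG regions were +Myf6+F/R/C sites and 17.5% were +Myf6 sites. The rest of the window held 1 further HA peak and none for IgG or H3K27me3.

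In +Myf6+F/R/C cells the Pax7 site had summit pileups of 15 and 11 fragments and folds of 7.17 and 6.90 in replicates 1 and 2. In +Myf6 cells it had summit pileups of 10 and 7 fragments and folds of 6.50 and 4.73. The −log10 q was 8.97 and 7.0 in +Myf6+F/R/C cells and 6.17 and 3.19 in +Myf6 cells. In all 3 deposited or recovered values the lower +Myf6+F/R/C library was above the higher +Myf6 library. However, each +Myf6+F/R/C library was also deeper than the +Myf6 library of its number. Median pileups over the 7704 regions in all 4 induced lists and no control list had this order (18 and 14 against 13 and 11). Their median folds did not. With the 4 peaks multiplied down to the depth of HA replicate 1 without doxycycline, the summit pileups were 7.42 and 8.24 fragments with +Myf6+F/R/C and 7.22 and 7.0 with +Myf6. The −log10 p at that depth was 7.05 and 8.38 with +Myf6+F/R/C and 7.48 and 6.15 with +Myf6. The treatments thus overlapped in −log10 p but not in scaled pileup. At the depth of HA replicate 2 without doxycycline the −log10 p overlapped again, with 5.85 and 6.90 against 6.20 and 5.14. The pileups there were 5.73 and 6.36 fragments against 5.58 and 5.42, again without overlap. These gaps between scaled pileups were small. How many other regions have values in such an order was not counted, so it is not known whether this is usual. No test of differential signal was made, since scores of separate lists are not on 1 scale.

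Peaks at the Pax7 site were merged because they overlap, so their summits had to lie fairly near each other. Summit distances over other regions of the genome were not computed. The summits at the Pax7 site were 16 bp apart in the +Myf6+F/R/C pair and 49 bp apart in the +Myf6 pair, and all 4 fell within 140 bp. Within their own lists these peaks ranged from the upper to the lower part in strength. The weakest was that of +Myf6 replicate 2, whose pileup of 7 and fold of 4.73 were under its list's medians of 9 and 5.17. In the +Myf6+F/R/C lists 21.9 and 22.1% of all peaks had a higher −log10 q, and in the +Myf6 lists 31.2 and 66.3% did. Among the 7704 regions that had a peak in all 4 induced lists and no control list, median pileups were 18 and 14 with +Myf6+F/R/C and 13 and 11 with +Myf6. The Pax7 site was below each of these medians. Median folds of the same regions were 5.93 and 5.55 with +Myf6+F/R/C and 5.74 and 5.78 with +Myf6, and the Pax7 site was above 3 of these 4.

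The site lay 29.9 kb above the low end of the Pax7 window. Pax7 is transcribed towards lower coordinates and is 96.5 kb long in RefSeq (GRCm38.p6). If the window holds the whole gene at about this length, the start of the gene lies at least 96.5 kb above the low end, so the site is not at the start. Whether the site is in an intron, an exon or beyond the end of the gene cannot be stated without an annotation of the peaks' build. The remaining HA peak, Pax7 region 1, was found only in +Myf6 replicate 2, at chr4:139438858-139439018. It had a fold of 5.28 and a summit pileup of 7 fragments, and 52.5% of its list's peaks had a higher −log10 q.

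**Figure D1:**
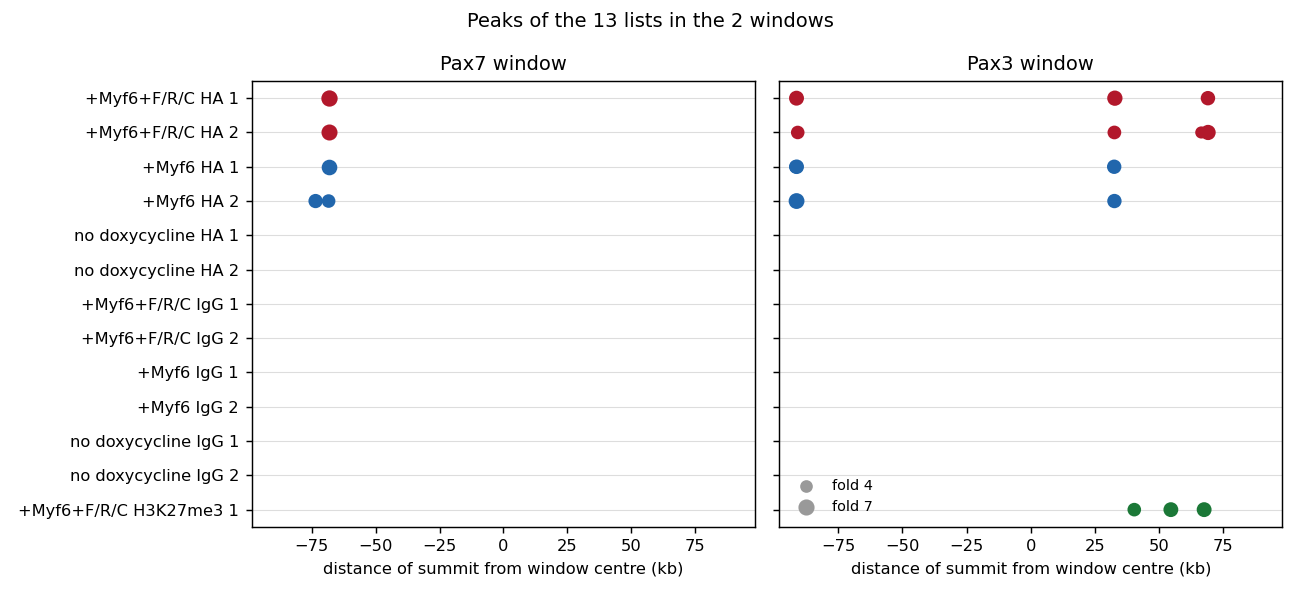
Summits of all peaks in the Pax7 and Pax3 windows by library, as distance from the window centre in kb, with dot area in proportion to the authors' fold (3.65 to 7.17). Every HA dot is from an induced library, the 8 control rows are empty, and the 3 H3K27me3 peaks are at Pax3.

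At Pax3, HA peaks were spread over more of the window, and 1 place was shared by the +Myf6+F/R/C lists without a peak in either +Myf6 list. The 4 induced libraries held 12 HA peaks, which fell into 4 merged regions, numbered 1 to 4 from the low end. Regions 1 and 2 had peaks in all 4 induced lists and were sites of both treatments. Region 4 was a site of +Myf6+F/R/C with no +Myf6 peak. Region 3 had 1 peak in 1 list.

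Pax3 region 2 (chr1:78158275-78158884) had the steadiest position after the Pax7 site among the places found in all 4 lists. Its folds were 6.19 and 4.84 in +Myf6+F/R/C cells and 5.40 and 5.36 in +Myf6 cells. The summit pileups were 13 and 9 fragments with +Myf6+F/R/C and 9 and 7 fragments with +Myf6. The +Myf6+F/R/C folds lay on either side of the +Myf6 folds, so the treatments overlapped. Summits were 187 bp apart in the +Myf6+F/R/C pair and 89 bp apart in the +Myf6 pair, and all 4 fell within 260 bp. Of all peaks in the lists, 34.5 and 66.0% had a higher −log10 q with +Myf6+F/R/C and 54.3 and 47.1% with +Myf6.

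Pax3 region 1 (chr1:78034433-78035333), 6.43 kb from the low end of the window, was less even. In +Myf6+F/R/C cells the folds were 5.87 and 4.70 and the summit pileups 12 and 7 fragments. In +Myf6 cells, replicate 1 had 2 neighbouring peaks with folds of 4.70 and 5.56 and pileups of 9 and 11 fragments, and replicate 2 had 1 peak with a fold of 6.69 and a pileup of 10 fragments. The highest fold here was in a +Myf6 library and not in a +Myf6+F/R/C library. The +Myf6 summits nearest to each other were 49 bp apart, but the +Myf6+F/R/C summits were 478 bp apart. The +Myf6+F/R/C replicate 2 peak (78035124 to 78035307) did not touch any +Myf6 peak, which ended by 78034948. It joined the region through the wide +Myf6+F/R/C replicate 1 peak, so the 901 bp region joins peaks that do not all overlap each other. With summits required within 250 bp of each other, region 1 was no longer a +Myf6+F/R/C site and the window kept 2 such sites of 3.

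Pax3 region 4 (chr1:78194764-78195320) was the place without a +Myf6 peak, a difference that was not tested. Its folds were 5.43 and 6.15, its summit pileups 12 and 17 fragments and its −log10 q 5.48 and 7.80 in replicates 1 and 2. The pileup was higher in replicate 2, although that library was the shallower of the pair, and its 17 fragments were the most of any HA peak in either window. The 2 summits were 50 bp apart. In the replicate 2 list 17.4% of peaks had a higher −log10 q, against 48.3% in the replicate 1 list. The 2809 regions with this pattern, 3.91% of all 71864 merged regions, had median pileups of 12 and 10 fragments and median folds of 4.96 and 4.92, so region 4 was at or above each median.

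Values of region 4 at the depth of the +Myf6 libraries are a description, since its peaks were picked as ones called in the +Myf6+F/R/C lists and in neither +Myf6 list. When the pileup and the expected pileup of its 2 peaks were multiplied down to the depth of each +Myf6 library, where that was the lower, the −log10 p was 6.33 and 11.5 at +Myf6 replicate 1 and 5.02 and 9.01 at +Myf6 replicate 2. The lowest −log10 p in those lists was 3.67 and 3.54. The part of depth in the missing +Myf6 peaks was not tested. Pax3 region 3 (chr1:78192338-78192698) was close by. It had a peak in +Myf6+F/R/C replicate 2 only, with a fold of 3.65 and a pileup of 10 fragments, the lowest fold in either window.

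**Figure D2:**
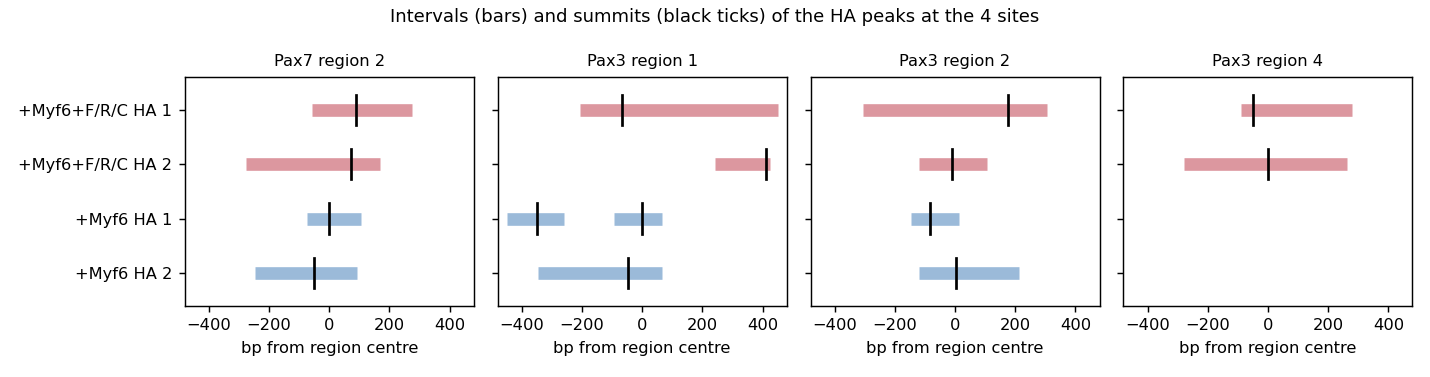
Intervals (bars) and summits (black ticks) of HA peaks at the Pax7 site and at Pax3 regions 1, 2 and 4, in bp from the centre of the merged region, with 1 row for each induced library. Summits lie within 140 bp at the Pax7 site, while the +Myf6+F/R/C summits at Pax3 region 1 are 478 bp apart, and Pax3 region 4 has no +Myf6 bar.

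**Figure D3:**
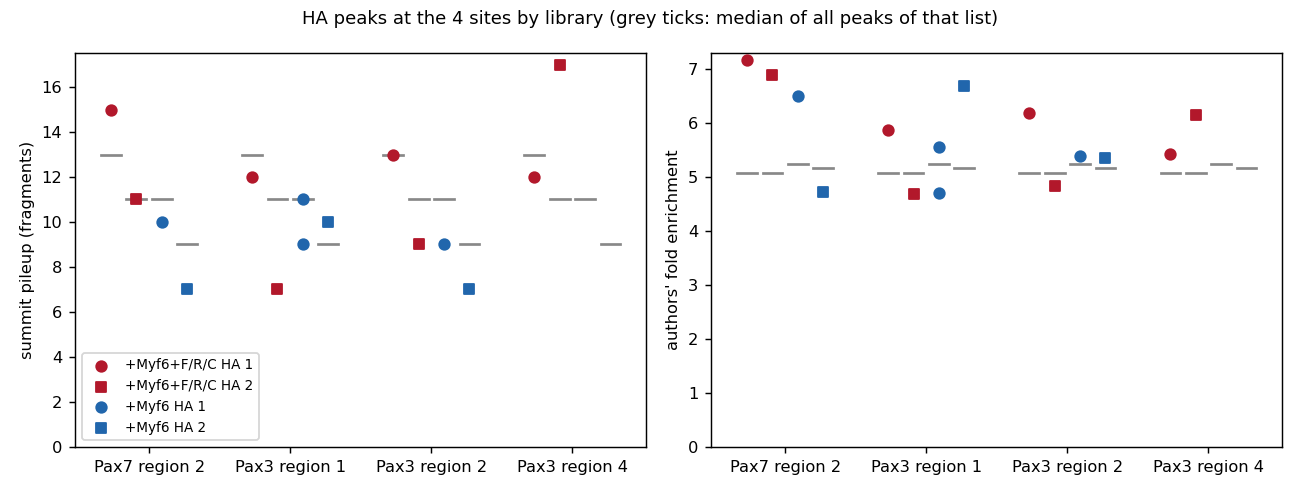
Summit pileup in fragments (left) and the authors' fold (right) of each HA peak at the 4 sites, with circles for replicate 1, squares for replicate 2 and grey ticks for the median over all peaks of the same list. Pax3 region 1 has 2 circles for +Myf6 because replicate 1 held 2 peaks there.

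The number of HA peaks was compared between treatments for each window. The question is whether Myf6 occupies these loci after induction and whether the compounds change this. In the Pax7 window +Myf6+F/R/C libraries held 1 and 1 peaks, +Myf6 libraries 1 and 2, and the libraries without doxycycline 0 and 0. In the Pax3 window the counts were 3 and 4 with +Myf6+F/R/C, 3 and 2 with +Myf6, and 0 and 0 without doxycycline. Both induced treatments thus lay above the uninduced libraries at both loci, without overlap. Of tiles of the Pax7 width, laid along the chromosomes, 54.6% had more peaks in both +Myf6+F/R/C lists than in either uninduced HA list, and 51.3% did so for +Myf6. For tiles of the Pax3 width the shares were 54.3 and 51.2%. Induced HA lists averaged 2.11 to 2.86 peaks in a tile of the Pax7 width and uninduced HA lists 0.16 to 0.312. The Pax7 count of each induced library was reached in 51.7 to 65.1% of tiles of its width, and the Pax3 count in 28.6 to 51.4%. Both the counts and their lack of overlap were thus shared by many tiles. The labels do not say whether replicates were separate cultures, so the spread between them may be technical.

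Against no doxycycline, the Pax7 difference was 1 peak for +Myf6+F/R/C and 1.5 peaks for +Myf6, and the Pax3 difference was 3.5 and 2.5 peaks. Each of these 4 comparisons had an exact permutation p of 0.333 (two-sided, n = 2 each), the smallest that 2 libraries against 2 allow, and 0.444 after Benjamini-Hochberg adjustment over the 8 comparisons made. None could pass 0.05. The SD of the counts was 0 to 0.707 within each group.

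Between +Myf6+F/R/C and +Myf6 the counts overlapped or met. The difference was -0.5 peaks at Pax7 (1 ± 0 and 1.5 ± 0.707, SD, n = 2 each; exact permutation p = 1, adjusted 1). It was 1 peak at Pax3 (3.5 ± 0.707 and 2.5 ± 0.707, SD, n = 2 each; exact permutation p = 0.667, adjusted 0.762). The Pax7 difference rested on the single peak of +Myf6 replicate 2 and was 0 without that library. The Pax3 difference was 0.5 without replicate 2 of either treatment. With peaks of −log10 q of at least 5 the Pax7 difference turned to 0.5 and the Pax3 difference stayed at 1.

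HA peaks were also set against IgG peaks of the same nuclei. In induced cells the 4 HA libraries held 1.25 ± 0.50 peaks at Pax7 and the 4 IgG libraries 0 ± 0 (SD, n = 4 each). At Pax3 the HA libraries held 3.00 ± 0.816 peaks and the IgG libraries 0 ± 0. Both comparisons gave an exact permutation p of 0.0286 (two-sided, the smallest possible with n = 4 each) and 0.114 after adjustment over 8 comparisons, and HA was higher in 4 of 4 pairs. All 4 induced HA lists also exceeded all 4 IgG lists in 48.7% of tiles of either width. When each HA library was paired with its IgG library, an exact sign-flip test gave p = 0.125 at both loci, the smallest that 4 pairs allow. The IgG libraries were shallow. With every list scaled to the depth of the shallowest IgG library, no HA peak was left in either window.

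The HA libraries without doxycycline were closer in depth. As a description of peaks that had already been called in induced lists, these peaks were multiplied down to the depth of each uninduced HA library and compared with the lowest −log10 p of its list, which was 4.57 in replicate 1 and 4.51 in replicate 2. At the Pax7 site 8 of 8 such pairs of a peak and a list reached it. At Pax3 region 2 all 8 of 8 did, at region 1 it was 8 of 10, and at region 4 it was 3 of 4. At IgG depth fewer did, with 11 of 24 pairs at the Pax7 site and 5 of 30, 3 of 24 and 4 of 12 pairs at Pax3 regions 1, 2 and 4. Such pairs were not counted over other regions of the genome, so it is not known whether these counts are usual. Since these peaks were picked where they are high, the part of depth in the empty control lists was not tested. The narrowest peak, taken as the fragment length, measured 161 to 172 bp in the lists of induced HA libraries but 152 and 108 bp in those without doxycycline. The effect of this was not tested.

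**Figure D4:**
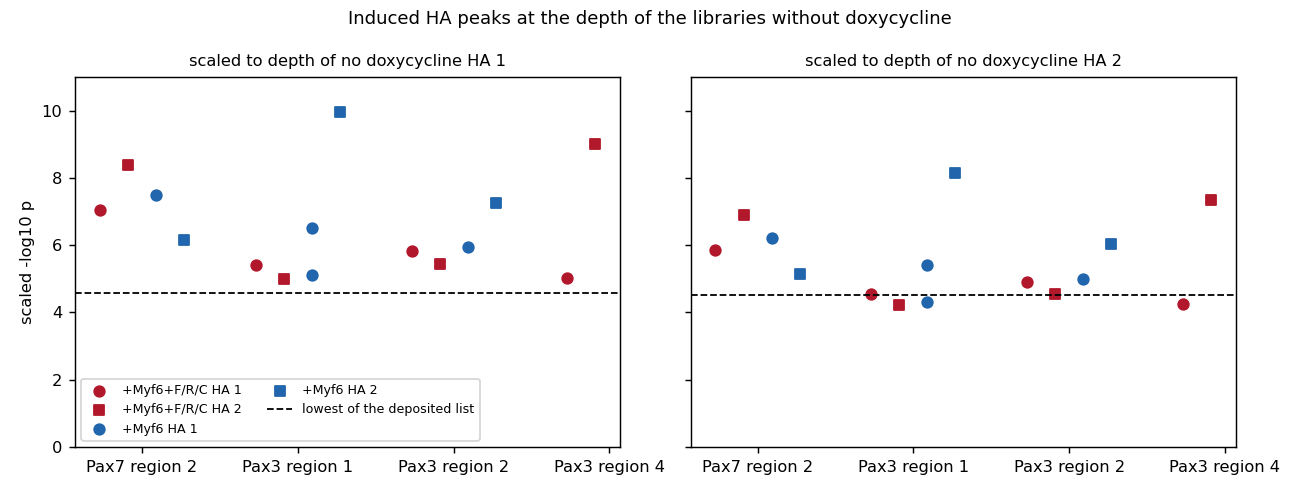
The −log10 p of induced HA peaks at the 4 sites after scaling to the depth of each HA library without doxycycline, with the lowest −log10 p of that library's own list as a dashed line (4.57 left, 4.51 right). All Pax7 values are above the line in both panels, and 3 values at Pax3 are under it in the right panel.

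Set beside the whole genome, the numbers of sites at both loci were ones that many stretches of the same width share. Of the 6 merged HA regions in both windows, 3 were +Myf6 sites, against 17.5% of all merged regions, and 4 were +Myf6+F/R/C sites, against 21.0%. Peaks in all 4 induced lists and no control list were found at 3 of the 6, against 10.7% of all merged regions. A control peak was found at none of the 6 and at 10.7% of all merged regions. These regions are few and neighbours, so the shares are a description. The Pax7 window had 1 site in each treatment. Of 13480 tiles of the same width, 49.0% had at least 1 +Myf6+F/R/C site and 44.5% at least 1 +Myf6 site. The Pax3 window had 3 +Myf6+F/R/C sites and 2 +Myf6 sites. Of 13547 tiles of its width, 17.3% had at least 3 +Myf6+F/R/C sites, 25.1% had at least 2 +Myf6 sites, and 48.7 and 44.4% had at least 1.

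No control peak lay in either window, as in most of the genome. Uninduced HA lists had no peak in 86.9 and 76.4% of the tiles of the Pax7 width, and the IgG lists had none in 88.6 to 97.6%. From the Pax7 site the nearest control peak was 117 kb away, in the HA list of replicate 1 without doxycycline. From Pax3 regions 1, 2 and 4 it was 330 kb, 206 kb and 170 kb away, in the HA list of replicate 2 without doxycycline.

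**Figure D5:**
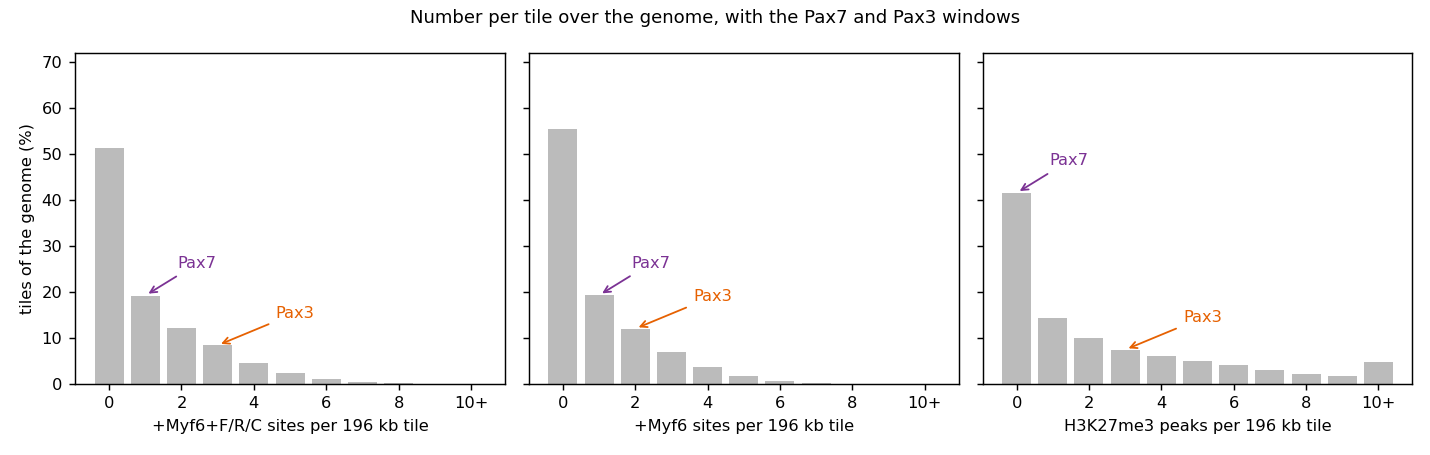
Share of genome tiles of 196 kb by the number of +Myf6+F/R/C sites, +Myf6 sites and H3K27me3 peaks they hold, with arrows at the counts of the Pax7 and Pax3 windows. Pax7 stands at 1, 1 and 0 and Pax3 at 3, 2 and 3.

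H3K27me3 peaks were found at Pax3 and not at Pax7. In the single H3K27me3 library, from +Myf6+F/R/C cells, the Pax7 window held no peak and the Pax3 window held 3. With 1 library there is no replicate check. An empty window was common, as 58.6% of tiles of the Pax7 width had a peak and the other 41.4% did not. Of the tiles of the Pax3 width 58.4% had a peak and 34.1% had at least 3. Around Pax7 the nearest H3K27me3 peaks were 62.8 kb below the window and 654 kb above it. In that stretch above the window no site of either treatment and no control peak was met either. Gaps of this length were not counted over the genome.

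The 3 H3K27me3 peaks at Pax3 lay in the upper part of the window. They were at chr1:78166194-78166358 (fold 4.75, pileup 8 fragments), chr1:78180165-78180922 (fold 5.80, pileup 10 fragments) and chr1:78193480-78193657 (fold 5.83, pileup 13 fragments). The pileups were under that library's median of 18 fragments, and 57.3 to 75.1% of its peaks had a higher −log10 q. Of the folds, 2 were above the library's median of 5.31 and 1 was below it. Together the 3 peaks covered 1101 bp, 0.562% of the window, and 2 of them had a −log10 q of at least 5. The list holds narrow peaks, so any signal outside called peaks was not counted in either window.

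None of the 4 sites overlapped an H3K27me3 peak, while 32.3% of all +Myf6+F/R/C sites and 34.7% of the regions in all 4 induced lists did. The sites differed in how near the mark was. Pax3 region 4 was 1.11 kb from the nearest H3K27me3 peak and Pax3 region 3 was 0.782 kb from the same peak, on its other side. Pax3 region 2 was 7.31 kb away, and Pax3 region 1 and the Pax7 site were 131 kb and 92.7 kb away. Over all 15089 +Myf6+F/R/C sites the median distance was 8.23 kb, 52.7% lay within 10 kb and 10.4% lay beyond 100 kb. H3K27me3 was measured with the compounds only, so its state at region 4 in cells with Myf6 alone is not known.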

How the data were processed

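The authors deposited 13 narrow peak lists, 1 for each library. Per the submitters' processing notes, MACS2, deepTools and DiffBind were used on build GRCm39. The sources used here give no versions, no aligner and no calling control. Per the narrowPeak layout, the authors gave each peak a fold (a ratio to local background), −log10 p and −log10 q values, a score that is 10 times the −log10 q, and the offset of its summit. Peaks outside chromosomes 1 to 19, X and Y (910) were not used.

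Summit pileup k and expected pileup λ were solved from fold = (k + 1)/(λ + 1) and the Poisson tail, and at least 99.9% of each list matched the deposited −log10 p (tolerance 0.002). The step was tested on simulated data. Depth is the lowest λ over the narrowest width, per 10 kb. Scaling multiplies k and λ by the ratio of depths, with no random draws. HA and IgG peaks sharing at least 1 bp were merged. Counts were compared with exact permutation tests (Python 3.11.15, numpy 2.4.6, pandas 2.3.3, scipy 1.17.1).

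Per the labels' protocols, 1 sample of nuclei was split over HA and IgG tubes, so these libraries form pairs. Windows and lists were chosen with earlier results of these data known. All peaks in the windows are reported, with those in both lists of a treatment in full. Windows around other Pax genes and genes of the same network could not be placed on GRCm39 and were not analysed here. RefSeq tables are on GRCm38.p6 and served for the promoter, gene length and neighbours only. Alternatives tried were thresholds, window widths, depth scaling, pairing, summit distance, control peaks kept and leaving out each library.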

Additional observations from a re-analysis of the deposited data

How the results depend on the processing

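No peak in either window reached −log10 q of 10, so every peak difference, site count and H3K27me3 count was 0 with that threshold. At −log10 q of at least 5, the Pax7 window kept 0 +Myf6 sites of 1, the Pax3 window 1 of 2 +Myf6 and 1 of 3 +Myf6+F/R/C sites, and the Pax7 difference between HA and IgG was 0.75 (exact permutation p = 0.143). At Pax7, +Myf6+F/R/C minus +Myf6 was -0.5 as reported, 0.5 at −log10 q of at least 5, 0 with the window narrowed by 30 kb or widened by 50 kb on each side, and -1 to 0 without any 1 library. Narrowed windows kept 1 Pax3 site in each treatment. At −log10 q of at least 5, +Myf6 minus no doxycycline was 0.5 at Pax7 and 1 at Pax3 (1.5 and 2.5 as reported), and at Pax3 +Myf6+F/R/C minus no doxycycline was 2 (3.5 as reported) and HA minus IgG 1.5 (3 as reported). With the narrowed window these 3 Pax3 differences were 1, 1.5 and 1.25, and +Myf6+F/R/C minus +Myf6 was 0.5 (1 as reported, 0.5 to 1.5 without any 1 library). At the depth of the shallowest list compared, +Myf6+F/R/C minus no doxycycline at Pax3 was 2. HA minus IgG was 0 at both loci at the depth of the shallowest IgG library. It was 1.00 to 1.33 at Pax7 and 2.67 to 3.33 at Pax3 without any 1 library (exact permutation p = 0.0571, the smallest 3 against 4 allow). In the replicate block of HA and IgG pairs it was still 1.25 and 3.00 (exact sign flips, p = 0.125). The block on replicate number changed no other call, but with 2 libraries against 2 none could pass 0.05. Across treatments, replicate numbers moved together weakly over regions (r = 0.0094 to 0.113), and these libraries are not known to be paired. The IgG libraries were shallower than the induced HA libraries, and the part of depth in their lack of peaks was not tested.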

Other observations

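Beyond the windows, sites were uneven on either side. Below the Pax7 window, 63.3 kb away, lay a place that was a site of both treatments (chr4:139349605-139350674), and an H3K27me3 peak with a fold of 7.92 overlapped it. Above the Pax7 window the next +Myf6+F/R/C site was 734 kb away and the next +Myf6 site 654 kb away. An H3K27me3 peak with a fold of 4.22 overlapped that +Myf6 site. No control peak was met for 1356 kb above the window. In RefSeq the protein-coding neighbours of Pax7 are Tas1r2, a sweet taste receptor gene, on the low side and Klhdc7a on the high side.

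Around the Pax3 window the nearest +Myf6+F/R/C sites were 590 kb below and 291 kb above, and the nearest +Myf6 sites were 205 kb below and 100.1 kb above. The 3 +Myf6+F/R/C sites of the window were thus the only ones over a stretch that reached from 590 kb below it to 291 kb above it. The nearest H3K27me3 peaks outside were 536 kb below and 241 kb above. The protein-coding neighbours of Pax3 in RefSeq are Epha4, which encodes an ephrin receptor, and Gm2102.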
